A study of Homo sapiens with 12 samples.

Results

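The transcriptome of U937 cells exposed to all-trans retinoic acid alone was compared with that of untreated cells. The comparison used the 3 ATRA and the 3 untreated samples among the 12 RNA samples of the series, which also holds 3 DAC and 3 DAC + ATRA samples, and took in all 197782 transcripts of the deposited matrix. U937 is a human cell line with monocytic features from a histiocytic lymphoma and is widely used as a model of acute myeloid leukaemia (AML). ATRA was given at 1 µM and DAC (decitabine, a DNA demethylating cytosine analogue) at 200 nM, and the labels put 20% FCS and 5 ng/ml GM-CSF in the medium of every group, treated or not. The untreated cells carried no agent and are labelled 96 h, and the ATRA and DAC cells are labelled 72 h, so that labelled time and treatment cannot be told apart. The paper instead gives a harvest at 72 h for RNA sequencing. It also has ATRA added with the last of 3 daily DAC doses, so the labelled 72 h need not be the time under ATRA. The study's methods give DMSO as the solvent of ATRA and vehicle-treated cells as controls, whereas the labels call the controls of this series untreated, so that it is not settled whether they received solvent. The 3 samples of a group are described as technical triplicates of 1 cell line, and the p-values below therefore measure the spread between these samples only, which may be technical.

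Retinoic acid is the ligand of the nuclear receptors RARA, RARB and RARG, which sit on DNA as partners of the RXR receptors, hold target genes down with corepressors such as NCOR1 when no ligand is bound, and recruit coactivators such as NCOA3 when it is. Targets of the pathway include its own brakes, namely enzymes that degrade retinoic acid or turn its precursor back to retinol. In myeloid leukaemia cells the retinoid is known for driving maturation, most of all in acute promyelocytic leukaemia, where integrins, oxidase subunits and CD38 appear on or in the maturing cells and proliferation slows.

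The 6 libraries held between 9666728 and 10523163 counted reads, and 3 reads corresponded to normalized values between 2.497 and 3.17. Values are per transcript, and a gene whose transcripts have few bases of their own can be listed at or near 0 whatever its RNA level, so a value of 0 is only a listed value here. The 2 libraries of every pair within a group differed beyond counting error and were kept as separate samples. Among 13 monocytic marker genes, the summed value ran from 4548 to 4957 in untreated and from 5127 to 6098 in ATRA cells. CD4 carried most of it, and 4 of the 13, FCER1G, TYROBP, CSF1R and LILRB4, were listed at 0 in all 6 libraries, and CYBB was the 1 member called. The 10 granulocytic markers summed to 49281 to 55468 in untreated and 26776 to 38153 in ATRA cells, nearly all of it MPO, with a rise of CXCR2 and a fall of MPO called. The 10 T and NK cell markers found in the matrix summed to values between 3.68 and 11.6 in all 6 libraries, and of the 2 tested CD5 was called upwards, at 0 without and 2.11, 0.91 and 0.832 with ATRA. Erythroid and megakaryocytic markers summed to values between 115 and 160.2. The 7 B cell markers summed to 483 to 544 in untreated and 499 to 714 in ATRA cells, with MS4A1 listed at 0 and a rise of CD79A called. The 12 stromal or epithelial markers summed to 159 to 199 and 363 to 415, with rises of PECAM1, COL1A1 and PDGFRB, while 8 of the 12, EPCAM, CDH1 and COL1A2 among them, were listed at 0. The part of other cell types in the results was not tested.

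With ATRA, far more protein-coding transcripts rose than fell, and the rises were larger. Of 9016 protein-coding transcripts tested, 583 (6.47%) were upregulated and 241 (2.67%) downregulated at an adjusted p under 0.01 (limma, Benjamini-Hochberg). The median log2 fold change was 1.23 among the former and -0.83 among the latter, against 0.00 over all tested. A rise of at least 4 on the log2 scale was seen for 32 transcripts and a fall of that size for none, while 355 rose and 94 fell by at least 1. Counted with 1 transcript per symbol, the one with the highest mean over the 12 libraries, 543 of 7620 symbols (7.13%) were called upwards and 230 (3.02%) downwards, and these shares are the background for the gene groups below. Of the 583 and 241 called transcripts, 69 and 14 passed the filter on low values (at least 10 in at least 3 of the 12 libraries) only through the groups with DAC, and their calls rest on few reads. Called genes of this kind named in the text are CD5, CSF1, CSF2, FFAR3, GATA2, GBP4, ID1, LAMB3, MMP1, NCF1, OASL, SLC2A7 and THBS1. The balance of the directions depended on the scaling: upregulated transcripts made up 70.8% of the calls with the deposited size factors, 62.0% with TMM factors and 54.6% with total reads, all in limma. The third ATRA library, numbered 9 in the matrix, held the lowest of the 3 ATRA values for 385 of the 583 upregulated transcripts (66.04%), with a median rise of 1.10 on the log2 scale, against 1.27 and 1.31 in libraries 7 and 8. Without library 9, 807 transcripts were upregulated and 217 downregulated. The count of falls depended more on the controls, with 160 calls without untreated library 1, 137 without untreated library 2 and 153 without untreated library 3.

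**Figure D1:**
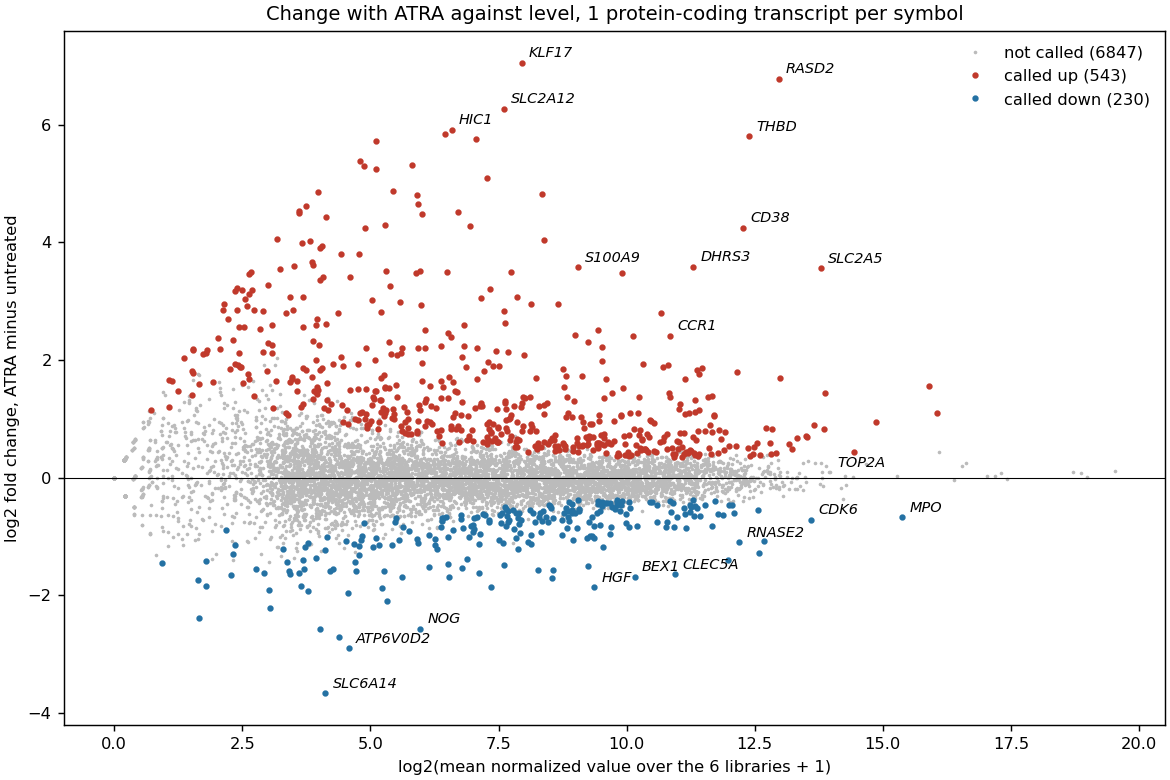
Log2 fold change of ATRA minus untreated (vertical axis) against log2 of the mean normalized value over the 6 libraries plus 1 (horizontal axis), 1 point per symbol, with called rises in red and called falls in blue. The 543 rises reach 7.05 (KLF17), whereas the 230 falls reach -3.67 (SLC6A14), and the highly expressed TOP2A lies close to 0.

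KLF17, a Krüppel-like zinc finger factor, showed the largest rise on the log2 scale of the test. Its values were 3.68, 2.73 and 1.85 in the untreated and 498, 555 and 419 in the ATRA libraries, a log2 fold change of 7.05 ± 0.31 (SE; adjusted p = 2.97e-12). RASD2, a small Ras-related GTPase, rose from already measurable levels of 122, 152 and 149 to 17311, 18398 and 11821 (log2 6.78 ± 0.14, adjusted p = 7.17e-17). The groups lay far apart in both genes, by 178-fold and 112-fold in the means. The sugar transporter SLC2A12 gave 6.43, 1.82 and 4.62 without and 472, 347 and 330.4 with ATRA (log2 6.27). HIC1, a transcriptional repressor and tumour suppressor that is often silenced by promoter methylation, had 1.84, 2.73 and 1.85 and 213, 186 and 164 (log2 5.91 ± 0.20, adjusted p = 1.15e-14). Since the untreated libraries held only 7 HIC1 reads together, the ratio of 86.7 (95% counting interval 41.8 to 217) is imprecise, but no value of the one group came near the other.

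THBD, or thrombomodulin, the endothelial and monocyte receptor that turns thrombin towards anticoagulant protein C, was among the most abundant of the strongly induced genes. It measured 255, 169 and 151 in untreated and 10714, 11454 and 9389 in ATRA cells (log2 5.80 ± 0.16, adjusted p = 1.44e-14). The cholesterol exporter ABCA1 moved from 1.84, 3.64 and 7.39 to 290.4, 223 and 269 (log2 5.76). ADAM19, a membrane-bound metalloprotease, had 1 read in the 3 untreated libraries together and values of 88.7, 64.6 and 47.4 with ATRA. CXCR5, which guides B cells and follicular T cells to CXCL13, rose from 1.84, 0.91 and 3.69 to 190.1, 182 and 138 (log2 5.85). Other genes of the leading 12 were the orphan receptor GPR82 (log2 5.39), the olfactory receptor OR4D10 (log2 5.31) and the basement membrane collagen chain COL4A2 (log2 5.24), each with at most 3 reads in any untreated library. In all 12, every ATRA value lay above every untreated value, which the naming rule required.

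The falls were smaller and fewer. ATP6V0D2, a subunit of the proton pump of lysosomes and osteoclasts, fell from 34.9, 48.2 and 38.8 to 4.22, 8.19 and 2.497, a log2 fold change of -2.90 ± 0.32 (adjusted p = 8.8e-07). NOG, the secreted BMP antagonist noggin, went from 94.7, 121 and 103 to 22.2, 20.03 and 10.8 (log2 -2.57), and the soluble pattern recognition protein PTX3 from 62.5, 66.5 and 61.9 to 11.6, 13.7 and 17.5 (log2 -2.10). More abundant genes fell as well. HGF, hepatocyte growth factor, was at 1031, 1077 and 1002 in untreated and 313, 270.4 and 273 in ATRA cells (log2 -1.86 ± 0.13, adjusted p = 9.81e-10), and CLEC5A, an activating C-type lectin of monocytes and neutrophils, at 3414, 2841 and 2649 and 1162, 949 and 767 (log2 -1.64 ± 0.15). BEX1, a small brain-expressed X-linked protein, stood at 1739, 1740.5 and 1743 without and at 539, 637 and 463 with ATRA (log2 -1.68). C3orf80, the serpin SERPINB10, the matrix glycoprotein EMILIN2, the cystatin CST7, the IL-18 receptor chain IL18RAP and the tetraspanin TSPAN2 complete the 12, with log2 fold changes between -1.97 and -1.68.

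**Figure D2:**
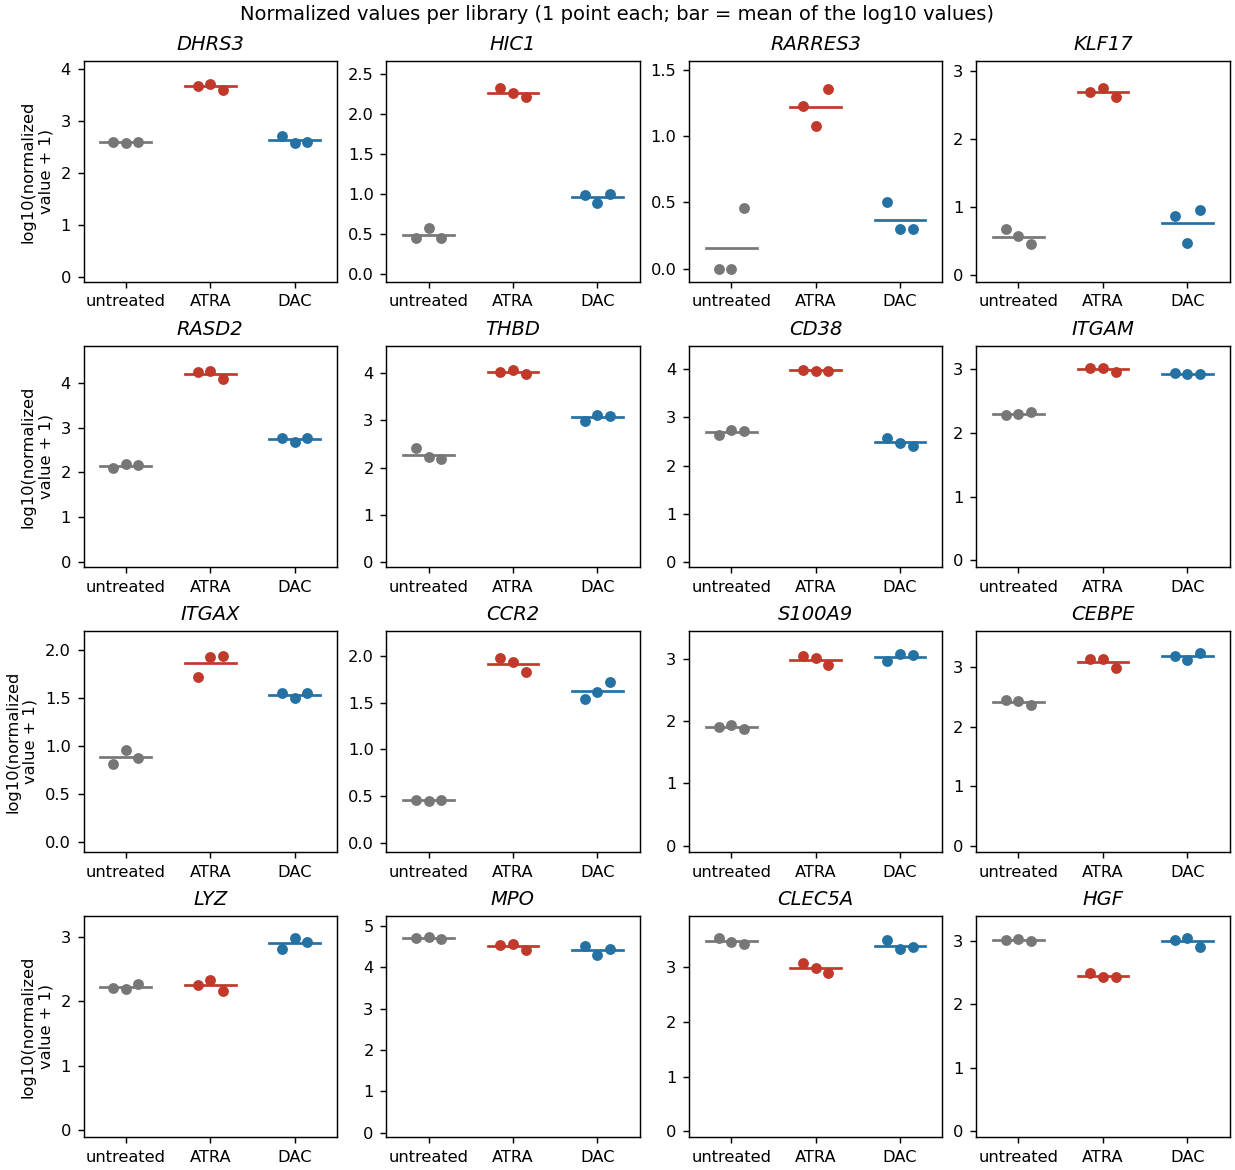
Normalized values of 16 genes, drawn as log10(value + 1) on the vertical axis, in the 3 untreated (grey), 3 ATRA (red) and 3 DAC (blue) libraries, with 1 point per library and a bar at the group mean of the log10 values. ATRA values lie above all untreated values for the first 12 genes shown, overlap them for LYZ, and lie below them for MPO, CLEC5A and HGF.

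Among the genes that make, bind and degrade retinoids, DHRS3 gave the largest response. DHRS3, the retinaldehyde reductase that returns retinal to retinol and so limits retinoic acid formation, stood at 391.5, 370.5 and 393 in untreated cells and 4809, 5252 and 3931 in ATRA cells, a rise of 12.1-fold in the mean (log2 3.58 ± 0.12, adjusted p = 1.15e-14). CYP26A1, the cytochrome P450 that degrades retinoic acid, was found at 0, 0 and 0.924 and 6.34, 4.55 and 0.832, and did not pass the test (log2 1.76 ± 0.50, adjusted p = 0.0206). A fit over all transcripts with any read put it past the threshold (adjusted p = 0.00727), as did the fit without ATRA library 9, with a log2 fold change of 2.36 and an adjusted p of 0.00126. Summing in limma moved CYP26A1 further from a call. Its coding transcripts summed by symbol gave a log2 fold change of 1.26 (adjusted p = 0.115). The sum over all its transcripts, which was added later, gave 1.46 (adjusted p = 0.0332). The level of a few reads per library limits each of these values. CYP2S1, another P450 with activity on retinoic acid, rose from 165, 159 and 159 to 293, 292 and 215 (log2 0.71, adjusted p = 0.0006). The retinol dehydrogenase DHRS9 (log2 1.02, adjusted p = 0.0206) and the retinal dehydrogenase ALDH1A1 (log2 -0.74, adjusted p = 0.0151) gave non-overlapping groups but missed the threshold. DHRS9 passed it in edgeR with TMM (adjusted p = 0.00911), in edgeR with the deposited size factors (adjusted p = 0.00805) and when coding transcripts were summed by symbol (adjusted p = 0.00356), and ALDH1A1 passed it in limma with TMM factors (adjusted p = 0.00655) and without ATRA library 8 (adjusted p = 0.0037). In all, 14 of 39 genes of retinoid metabolism and binding were tested, 2 were called upwards and 0 downwards (1 with TMM factors in limma, and 1 without ATRA library 8), and the median log2 fold change was 0.02. Of the 25 untested members, among them CYP26B1, CRABP2 and STRA6, 20 were listed at 0 in all 6 libraries.

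Of the RAR and RXR genes, only RARA was tested on the transcript used. It stood at 142, 122 and 120.1 without and 211, 233 and 134 with ATRA (log2 0.55 ± 0.16, adjusted p = 0.0239) and did not pass the test. The values of ATRA libraries 7 and 8 were above all untreated values, and that of library 9 lay among them. RARA was called upwards in edgeR with TMM (adjusted p = 0.00797), in DESeq2 (adjusted p = 0.00331) and in limma without ATRA library 9 (log2 0.79, adjusted p = 9.34e-05). RARB was at 0.919, 0 and 0 in untreated and 8.45, 10.01 and 8.32 in ATRA cells, so all 3 ATRA values were above all untreated values, but the level was too low for the filter. In the fit with no filter its adjusted p was 2.1e-05. Summed over all transcripts of the symbol, an addition made after the values were seen, RARG rose from 3.68, 0 and 2.77 to 16.9, 30.04 and 16.6 (log2 3.04, adjusted p = 4.65e-05), while RXRA, the obligate partner, gave 2397, 2190.2 and 2037 and 2663, 2704 and 1936 (log2 0.13, adjusted p = 0.535). The coactivator NCOA3 rose from 173, 174 and 125 to 334, 272 and 301 (log2 0.95 ± 0.14, adjusted p = 4.96e-05), and NR2F2, an orphan receptor that binds the same kind of element, fell from 175, 199 and 180.1 to 100.3, 106 and 77.4 (log2 -0.97 ± 0.16, adjusted p = 0.000196). The corepressor NCOR1 had a log2 fold change of 0.61 and did not pass the test. Of 40 receptors and coregulators, 20 were tested, 1 was upregulated and 1 downregulated (5.00% each), near the background, with a median of 0.16. Without ATRA library 9, 2 were upregulated.

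The classical element of these receptors is a direct repeat of a 6-base half-site with a 5-base spacer (DR5). The half-site was read as AGGTCA, written also as AGTTCA, else as GGGTCA, and in its last form as GGTTCA. Exact pairs of any of these in the same direction and 5 bases apart were searched on both strands within 5000 bases of either side of the transcript start in the hg38 genome. Such a pair lay near 22 of 528 upregulated symbols with a position (4.17%), 3 of 229 downregulated symbols (1.31%) and 166 of all 7441 tested symbols (2.23%). Within 500 bases of the start, 14 of the 7441 (0.188%) held a pair, and 3 of these were upregulated, namely HIC1, ARL14EPL and the pantothenate kinase gene PANK2. The pairs of HIC1 and ARL14EPL are shown because these genes were nearly silent before ATRA, and those of RARB and CYP26A1 because their low values are described above, each 5′ to 3′ on the strand of the element with the half-sites in capitals.
RARB: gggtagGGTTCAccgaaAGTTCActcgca
CYP26A1: acaattAGTTCAcccaaAGTTCAtcttta
HIC1: gcgccgGGTTCAcggcgGGGTCAgcggcc
ARL14EPL: tactcgGGGTCAactatAGTTCAaaaata
The RARB element (chr3:25428204-25428232, forward strand) ends upstream of the transcript, centred 45 bases before its start, and that of CYP26A1 (chr10:93073797-93073825, reverse strand) is centred 82 bases before the start of a gene on the forward strand. In HIC1 (chr17:2055414-2055442, forward strand) the pair lies in an intron, centred 325 bases past the start, and in ARL14EPL (chr5:116032173-116032201, forward strand) it is centred 137 bases upstream. CYP26A1 had 2 further pairs, 1968 and 3363 bases upstream. No such pair was found within this window of KLF17, RASD2, THBD, DHRS3 or CD38, which says only that these letters are absent there. Over all 35116 RefSeq promoters of GRCh38.p14, 31 (0.0883%) held a pair in 300 bases. A match is a description of the sequence and not a measurement of binding.

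Genes previously reported as retinoid-induced were called upwards far above the background. The list was drawn up with earlier results of these data known, so its count is not independent evidence of a direction. Of 60 such genes 38 were tested, 24 of them (63.2%, against 7.13% of all symbols) were called upwards and 0 downwards (1 when scaled by total reads), and their median log2 fold change was 1.49. CD38, an ectoenzyme that consumes NAD and a long-known retinoid target of myeloid cells, rose from 436, 543 and 508 to 9766, 9317 and 9124 (log2 4.25 ± 0.12, adjusted p = 4.8e-16). RARRES3, a phospholipase named for its retinoid response, had 0, 0 and 1.85 in untreated and 15.8, 10.9 and 21.6 in ATRA cells, with a ratio of 26.7 (95% counting interval 7.03 to 226). The ATRA values of CD38 were nearly equal among themselves, whereas RARRES3 rested on few reads. TGM2, tissue transglutaminase, was at 0 in every untreated library and at 0, 0 and 0.832 in the ATRA libraries. Summed over all its transcripts it had 4.22, 4.55 and 4.16 with ATRA and again 0 without (adjusted p = 7.45e-06). These sums were under 10 in all 6 libraries, so TGM2 entered that fit only through the groups with DAC, and the value rests on few reads. The cyclooxygenase PTGS1 rose with log2 1.64. CYP26A1, RARA, TNFAIP2, TGM2, the homeobox genes HOXA5 and HOXB4, PLAUR and OXTR were among the 14 tested members that did not pass, between -0.28 (OXTR) and 1.76 (CYP26A1).

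**Figure D3:**
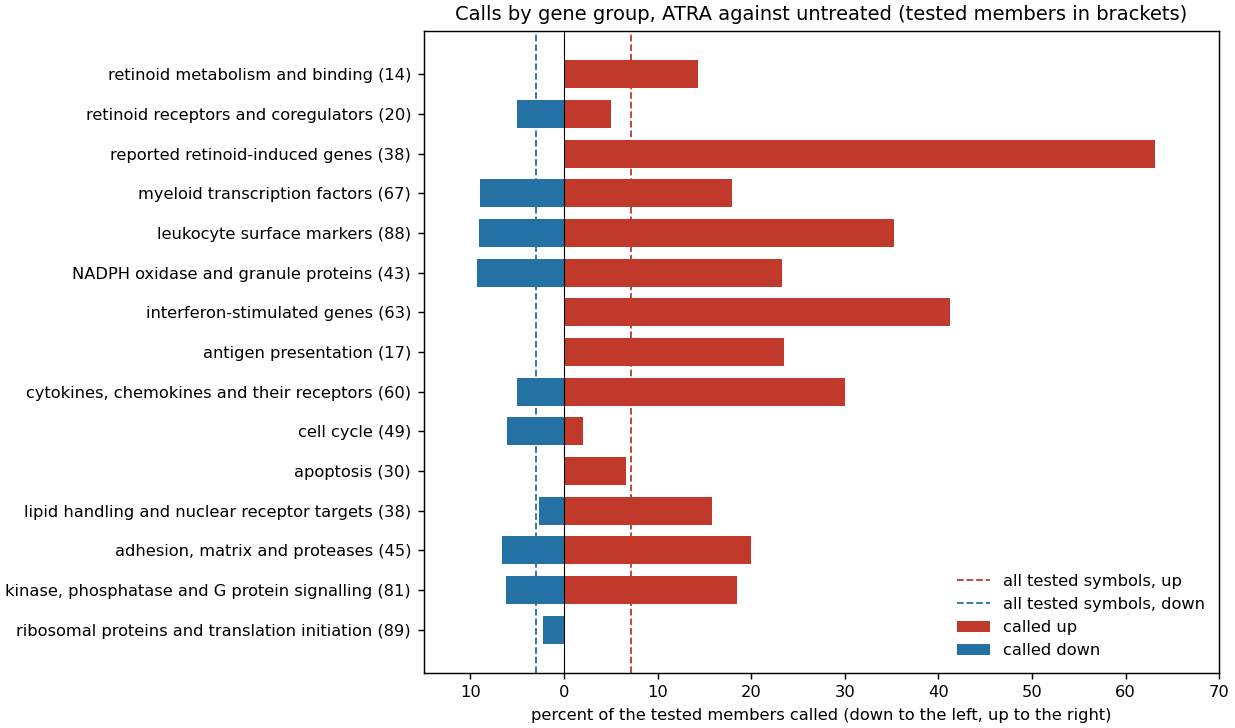
Percent of the tested members of 15 gene groups that were called upwards (red, to the right) or downwards (blue, to the left), with the number tested in brackets and dashed lines at the shares over all 7620 symbols (7.13% and 3.02%). The share called upwards runs from 0% of ribosomal and translation initiation genes to 63.2% of the reported retinoid-induced genes.

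Transcription factors of the myeloid lineage changed in both directions. CEBPE, the C/EBP factor of terminal granulocyte maturation, rose from 276, 266 and 227 to 1329.5, 1333 and 951 (log2 2.22 ± 0.13, adjusted p = 7.85e-11), and CEBPB, which acts in monocytes and in emergency granulopoiesis, from 701, 721 and 655 to 2789.9, 3438 and 1720.3 (log2 1.88 ± 0.19). CEBPA was already abundant, at 8764, 7716 and 6892, and reached 14125, 14734 and 8930.5 (log2 0.67, adjusted p = 0.00822). All ATRA values were above all untreated values for the 3 factors, the ninth library being the lowest of the ATRA group each time. SPI1, the PU.1 factor of monocytes, did not pass the test (131, 116 and 134 against 152, 150.2 and 177, log2 0.33, adjusted p = 0.178).

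Among the myeloid transcription factors and their partners, the pseudokinases TRIB1 and TRIB2, which mark C/EBP proteins for degradation, rose. TRIB1 moved from 36.8, 34.6 and 29.6 to 423, 407 and 345 (log2 3.50 ± 0.13) and TRIB2 from 104, 91.03 and 77.6 to 774, 872 and 515 (log2 2.95 ± 0.17). The helix-loop-helix inhibitor ID1 rose from 4 reads in all untreated libraries to 23.2, 21.8 and 9.99 (log2 3.06). ELF4, SOX4, KLF3 and STAT6 rose by 0.48 to 0.96 on the log2 scale. The falls were led by the AP-1 member FOSL2 (498, 433 and 448 to 144, 198 and 126, log2 -1.58 ± 0.15) and by ARID5B (165, 220.3 and 182 to 79.2, 99.2 and 78.2, log2 -1.13), a cofactor of histone demethylation. JUN, the AP-1 partner, fell from 1372, 1324 and 1147 to 784, 889 and 593 (log2 -0.78), and GFI1, a repressor needed for neutrophil precursors, from 243, 260.3 and 264 to 131, 145 and 158 (log2 -0.82). GATA2 was also called downwards (log2 -0.89), at values of only 3.68, 4.55 and 6.46 and 2.11, 1.82 and 2.497, and entered the test only through the groups with DAC. Of 105 genes 67 were tested, 12 (17.9%) were upregulated and 6 (8.96%) downregulated, and the median log2 fold change was 0.23. The downregulated count was 3 without untreated library 2. MYC was listed at 1.84, 1.82 and 1.85 and 0, 2.73 and 0 on the transcript used and was not tested.

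**Figure D4:**
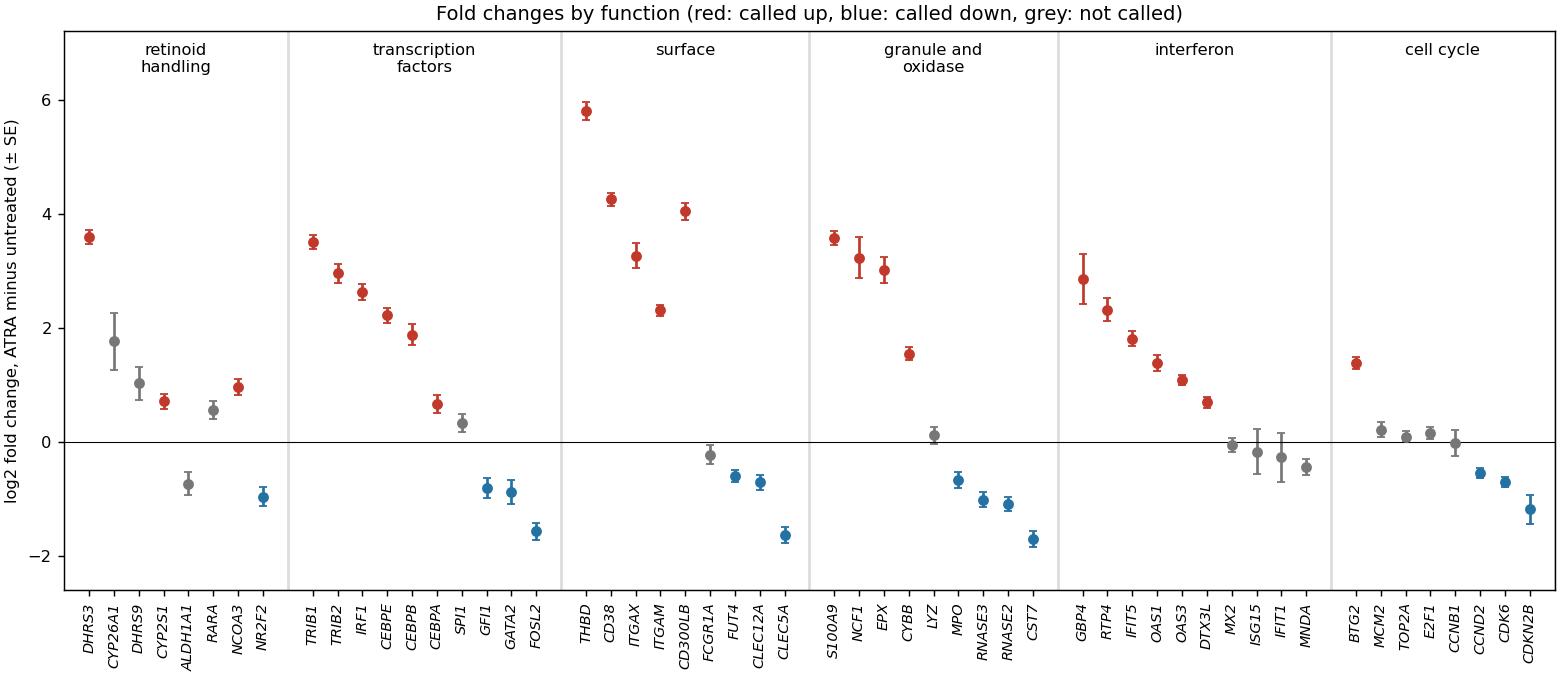
Log2 fold change of ATRA minus untreated with its SE (vertical axis) for 54 genes in 6 functional groups (horizontal axis), red for called rises, blue for called falls and grey for genes that did not pass. Surface genes span from 5.80 (THBD) to -1.64 (CLEC5A), and of the 8 cell cycle genes plotted, those other than BTG2 lie at or below 0.20.

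Leukocyte surface genes were the group with the most calls by number, in one of the larger lists. By share called upwards, the reported retinoid-induced genes (63.2%) and the interferon-stimulated genes (41.3%) stood higher. Of 161 genes 88 were tested, 31 (35.2%) rose and 8 (9.09%) fell (5 without untreated library 2 and 5 without untreated library 3), with a median of 0.38 on the log2 scale. ITGAM, which encodes the maturation marker CD11b, rose from 189, 200.3 and 217 to 1054, 1036 and 917 (log2 2.30 ± 0.10, adjusted p = 3.5e-13), and ITGAX, encoding CD11c, from 5.51, 8.19 and 6.46 to 51.7, 84.7 and 86.6 (log2 3.26 ± 0.23, adjusted p = 7.22e-10). The values of untreated and ATRA cells were apart for both integrin chains. ITGAL (CD11a), ITGA5 and ITGB5 rose too, with log2 fold changes of 2.70, 2.61 and 4.80, but ITGB2, the common beta chain of CD11a, b and c, gave 26.7, 20.9 and 12.9 and 19.01, 41.9 and 21.6 and did not pass (adjusted p = 0.484). CD300LB, an activating receptor of myeloid cells, rose from 48.7, 34.6 and 30.5 to 645, 629.9 and 604 (log2 4.04 ± 0.15). Other rises were those of the glycoprotein CD52 (log2 3.59), the Toll-like receptor homologue CD180 (1.91), the phagocytosis checkpoint receptor SIRPA (1.36), the adhesion molecules ICAM1 (1.44) and PECAM1 (1.02), the IL-8 receptor CXCR2 (1.02) and the C5a receptors C5AR1 (0.97) and C5AR2 (2.39).

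Not all surface genes of mature myeloid cells rose. Besides CLEC5A, the lectins CLEC12A and CLEC2B fell (log2 -0.72 and -0.83), as did FUT4, which makes the CD15 epitope (log2 -0.61), the low-affinity IgG receptor FCGR2A (-0.68), the P-selectin ligand SELPLG (-0.49) and TLR2 (-0.47). P2RY2, a receptor of extracellular nucleotides, was called downwards with log2 -1.15 (adjusted p = 0.00611), a call that was lost in 5 of the 6 fits that left out 1 library. FCGR1A, the high-affinity IgG receptor, was at 183, 163 and 137 and 163, 149 and 104 (log2 -0.23, adjusted p = 0.435). CD14 was listed at 0 in untreated cells and at 2.11, 1.82 and 0.832 in ATRA cells, on a transcript with no base of its own, and was not tested.

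Members of the granule and NADPH oxidase list moved in both directions. MPO, the myeloperoxidase of azurophil granules and one of the most abundant transcripts, fell from 52195, 55158 and 49005 to 35327, 37516 and 26256 (log2 -0.67 ± 0.14, adjusted p = 0.00328), and the eosinophil-type ribonucleases RNASE2 and RNASE3 from means of 6392 to 2994 (log2 -1.10) and of 804 to 397 (log2 -1.02). CST7, an inhibitor of granule cathepsins, gave 549.6, 616 and 545 and 194, 192 and 139 (log2 -1.71 ± 0.14). In the opposite direction, S100A9, a calcium-binding protein that makes up much of the cytosol of neutrophils and monocytes, rose from 80.9, 84.7 and 74.8 to 1116, 1021 and 784 (log2 3.57 ± 0.13, adjusted p = 2.06e-14), and CYBB, the catalytic oxidase subunit gp91phox, from 251, 212 and 209.6 to 694, 642 and 628 (log2 1.54 ± 0.11, adjusted p = 1.02e-09). NCF1, the oxidase organizer p47phox, was at 0 in the untreated libraries and at 8.45, 6.37 and 10.8 with ATRA, at least 3.105-fold higher than 3 reads per library, and it shares sequence with pseudogene copies. EPX, eosinophil peroxidase, rose from 7.35, 5.46 and 5.54 to 68.6, 57.3 and 44.9 (log2 3.02). LYZ, lysozyme, did not differ beyond the spread, with 157, 155 and 181 without and 181, 214 and 142 with ATRA (log2 0.11 ± 0.15, adjusted p = 0.725). Of 91 genes 43 were tested, with 10 called upwards (23.3%), 4 downwards (9.302%) and a median of 0.18. ELANE, PRTN3, CTSG and S100A8 were not tested, and their listed means were between 0 and 2.45 in both groups.

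Many interferon-stimulated genes rose, by moderate amounts. Of 115 such genes 63 were tested, 26 of them (41.3%) were upregulated and 0 downregulated, with a median of 0.64 on the log2 scale. When the values were scaled by total reads, 1 was called downwards, and likewise 1 without ATRA library 8. IRF1, the interferon regulatory factor known as a direct retinoid target, had 53.3, 53.7 and 53.6 in untreated and 389, 337 and 287 in ATRA cells (log2 2.62 ± 0.14, adjusted p = 1.2e-11). GBP4, an interferon-induced GTPase, rose from 0, 2.73 and 0 to 8.45, 13.7 and 9.16 (log2 2.85 ± 0.43, adjusted p = 5.39e-05), the receptor chaperone RTP4 from 14.7, 14.6 and 9.24 to 71.8, 75.6 and 54.1 (log2 2.31) and the RNA-binding IFIT5 from 74.4, 55.5 and 64.6 to 256, 226 and 206 (log2 1.81). The groups were apart in all 4 genes. The oligoadenylate synthetases OAS1, OAS2 and OAS3, sensors of double-stranded RNA, rose by 1.37, 1.11 and 1.08, and OASL by 1.76. The ubiquitin-like pathway enzymes UBA7 (1.29), UBE2L6 (0.88) and USP18 (0.81) and the cytidine deaminases APOBEC3F (1.05) and APOBEC3G (1.10) were upregulated as well. Several well-known interferon reporters were not called. ISG15 had a log2 fold change of -0.18, IFIT1 of -0.28, MX2 of -0.06, IFI44L of 0.02 and CXCL10 of 0.53. STAT2, IRF7 and IRF9 were not tested and were listed at 0 in all 6 libraries.

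In antigen presentation 17 of 47 genes were tested, and 4 rose (23.5%) and 0 fell, with a median of 0.32. CD1D, which presents lipids to NKT cells, rose most, from 12.9, 3.64 and 13.9 to 131, 87.4 and 119.8 (log2 3.51 ± 0.34, adjusted p = 2.86e-07). The peptide-trimming aminopeptidases ERAP1 (216, 222 and 198 to 491, 456 and 408, log2 1.09) and ERAP2 (145, 137 and 132 to 285, 289 and 292, log2 1.06) and the cathepsin CTSS (log2 0.73) were the other 3.

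Among cytokines, chemokines and their receptors 60 of 140 genes were tested, 18 rose (30.0%) and 3 fell (5.00%), with a median of 0.40. In the fit of the 6 libraries alone, 12 rose, and 1 fell without untreated library 1, without ATRA library 7 or without ATRA library 9. CCR2, the receptor of the monocyte chemoattractant CCL2, measured 1.84, 1.82 and 1.85 in untreated and 96.1, 85.6 and 67.4 in ATRA cells (log2 4.87 ± 0.25, adjusted p = 7.87e-12), with a ratio of 44.6 (95% counting interval 20.2 to 123). CCR7, the lymph node homing receptor, had 2 reads in all untreated libraries and values of 33.8, 30.9 and 32.5 with ATRA (log2 4.44). CCR1 started from a high level, with 699, 554 and 491, and reached 3511, 3298 and 2482 (log2 2.41 ± 0.13). Of the ligands, IL1B rose from 70.8, 54.6 and 61.9 to 286, 274 and 186 (log2 1.96 ± 0.15), and GDF15 (log2 1.64), TNFSF9 (1.37), CD70 (1.36), HBEGF (1.17) and OSM (1.00) were called too. CSF2, which encodes the GM-CSF that the medium contained, was listed at 0 in untreated and 6.34, 1.82 and 3.33 in ATRA cells. The ATRA mean was 1.39-fold the value of 3 reads per library, while ATRA library 8 lay below that value. CSF2 was called, but entered the test only through the groups with DAC. The falls were those of both chains of the IL-18 receptor, IL18RAP (91.9, 71.003 and 60.03 to 21.1, 25.5 and 19.98, log2 -1.68 ± 0.24) and IL18R1 (log2 -0.91), and of CSF1 (11.9, 8.19 and 6.46 to 1.06, 5.46 and 1.66, log2 -1.55, adjusted p = 0.00273), whose call was lost in edgeR with TMM (adjusted p = 0.0188).

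Of 96 cell cycle genes 49 were tested, with a median of -0.02. Of these 1 rose (2.04%, against 7.13% of all symbols) and 3 fell (6.12%, against 3.02%), and these shares were not tested against the background. Without ATRA library 9, 2 rose, and with TMM factors in limma 5 fell. The riser was BTG2, an antiproliferative gene (145, 148 and 122 to 386, 355 and 340.4, log2 1.38 ± 0.11, adjusted p = 5.3e-09). CDKN2D, an inhibitor of CDK4 and CDK6, and CDC25B, a phosphatase that activates cyclin-dependent kinases, had log2 fold changes of 0.92 (adjusted p = 0.102) and 0.91 (adjusted p = 0.178) and did not pass. CDK6, the kinase that drives G1, was highly expressed and fell from 15813, 15363 and 15208 to 10446, 8861 and 9033 (log2 -0.71 ± 0.09, adjusted p = 6.46e-06), and its partner CCND2 fell from 7416, 7166 and 6912 to 5143, 4903 and 4598 (log2 -0.55 ± 0.08). CDKN2B, an inhibitor of CDK4 and CDK6, was called downwards at low values (13.8, 16.4 and 22.2 to 7.39, 5.46 and 8.32), a call that edgeR with TMM did not make (adjusted p = 0.0265). TOP2A (16866, 14591 and 14974 against 18748, 14957 and 15734) and MCM2 (1269, 1332 and 1138 against 1558, 1638 and 1154) overlapped between the groups. CDKN1A, the p21 inhibitor, was at 0 in untreated and 3.17, 7.28 and 3.33 in ATRA cells and was not tested. Of 66 apoptosis genes 30 were tested, and 2 rose (6.67%, near the 7.13% of all symbols) while none fell. The 2 were the BH3-only gene BIK (161, 176 and 223 to 709, 763 and 543, log2 1.84 ± 0.16) and the kinase DAPK2 (log2 1.47, adjusted p = 0.00646). DESeq2 gave DAPK2 an adjusted p of 0.0179, and of the fits that left out 1 library only the one without ATRA library 8 kept both calls, the others making 1.

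In lipid handling, 38 of 79 genes were tested, 6 rose (15.8%) and 1 fell (2.63%). Beside ABCA1 the rises included the lipogenic factor SREBF1 (35.8, 29.1 and 48.9 to 83.4, 96.5 and 109, log2 1.34 ± 0.24), the lipid droplet protein PLIN2 (log2 0.71) and the cholesterol transporter NPC1 (log2 0.59). With total read scaling 4 members fell, without ATRA library 8 it was 2, and without any 1 of the untreated libraries or without ATRA library 9 it was 0. Adhesion, matrix and protease genes gave 9 rises (20.0%) and 3 falls (6.67%) among 45 tested of 90, with 1 fall without untreated library 2. THBS1, the matrix protein thrombospondin, rose from 1 read in all untreated libraries to 14.8, 10.9 and 3.33, and the laminin chain LAMB3 from 0 to 10.6, 6.37 and 3.33, at least 2.45-fold higher than 3 reads per library. EMP1, an epithelial membrane protein, fell from 989.9, 856 and 847 to 333, 335 and 281 (log2 -1.50 ± 0.11), and MMP1 was called downwards at values of 2.76, 6.37 and 3.69 and 0, 1.82 and 0, which edgeR with TMM did not call (adjusted p = 0.0522).

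Signalling genes of the kinase, phosphatase and G protein classes gave 15 rises (18.5%) and 5 falls (6.17%) among 81 tested of 125, with 3 falls without untreated library 2 and 3 without untreated library 3. PIK3CG, the phosphoinositide kinase downstream of chemoattractant receptors, rose from 42.3, 51.9 and 47.1 to 366, 303 and 350.4 (log2 2.83 ± 0.16, adjusted p = 2.8e-11), and GNG2, a G protein gamma subunit, from 2.76, 6.37 and 3.69 to 36.96, 43.7 and 24.97 (log2 2.80). The Rab5 activator RIN3 went from 0.919, 1.82 and 2.77 to 17.95, 19.1 and 19.1 (log2 2.85). RGS18, which shuts off G protein signals in blood cells, fell from 562, 551 and 587 to 218, 179 and 176 (log2 -1.57 ± 0.12), and the lipid phosphatase INPP4B from 1023, 1025 and 1041 to 534, 411 and 427 (log2 -1.18 ± 0.12). Ribosomal proteins and translation initiation factors gave no rise and 2 falls (2.25%) among 89 tested of 142, with a median of -0.17. The falls were those of RPL14 (-0.43), a ribosomal protein, and EIF4E3 (-1.24), a cap-binding protein, and neither remained called without untreated library 2, untreated library 3 or ATRA library 8.

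Some of the upregulated genes lay side by side in the genome. Taking called symbols whose starts follow each other within 150 kb, 17 stretches of at least 3 symbols were found, 16 with rises and 1 with falls. The 16 held 51 of the 543 upregulated symbols, a count given as a description with no test. The integrin stretch on chromosome 16 (hg38) held ITGAM, ITGAX and ITGAD, the last with 2.76, 0.91 and 0.924 in untreated and 12.7, 12.7 and 14.98 in ATRA cells. Free fatty acid receptors FFAR1 (3.81), FFAR2 (2.59) and FFAR3 (3.46) on chromosome 19 rose with their neighbour CD22 (3.41), an inhibitory lectin of B cells.

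Purinergic receptors formed another such stretch on chromosome 3, where P2RY12 rose from 10.1, 4.55 and 9.24 to 30.6, 21.8 and 24.1, P2RY13 from 20.2, 9.103 and 13.9 to 109.8, 108 and 115 and P2RY14 from 17.5, 9.103 and 11.1 to 72.9, 42.8 and 44.1. CD300A, CD300LB and CD300C on chromosome 17 rose by 1.86, 4.04 and 1.53 on the log2 scale. KLF17 was flanked by the glycine transporter SLC6A9 (log2 2.21) and by KLF18, which was at 0 in untreated cells and at 22.2, 14.6 and 11.7 with ATRA. The fructose transporter SLC2A5, one of the most abundant risers (2350.1, 2206 and 2050.2 to 28361, 28040.0 and 21921, log2 3.56 ± 0.10), lay beside SLC2A7 (1.88) and the glycolytic enzyme ENO1 (1.08) on chromosome 1. The stretch of falls on chromosome 12 held the lectins CLEC2B, CLEC2A and CLEC12A, with KLRF2 between them uncalled (log2 0.07). Genes of 1 family can share reads, and neighbours are not independent.

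**Figure D5:**
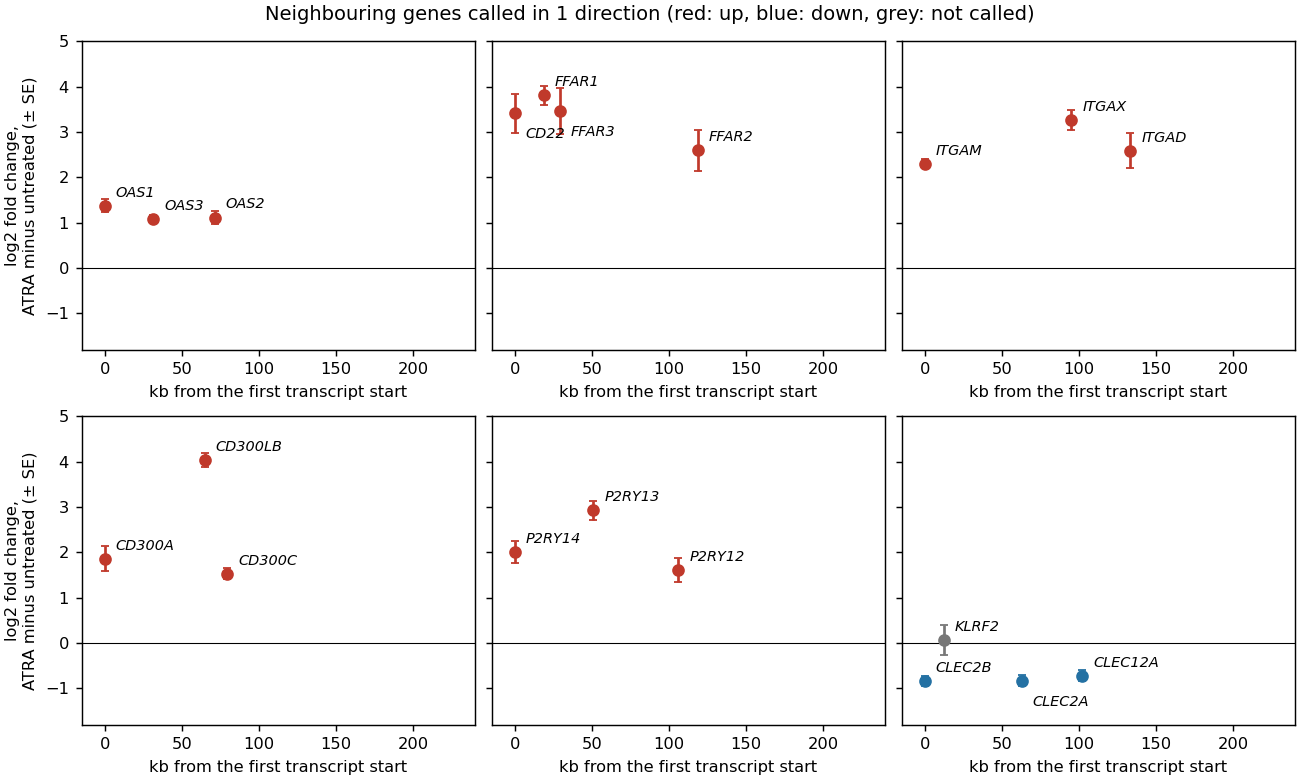
Log2 fold change of ATRA minus untreated with its SE (vertical axis) for the tested genes of 6 stretches, by distance in kb from the first transcript start of the stretch (horizontal axis). All genes in the first 5 panels are called rises, CD300LB being the highest at 4.04, and the last panel holds the lectin genes, called falls near -0.83 with KLRF2 near 0.

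A small set of transcripts went from near silence to a clear level. In all, 28 protein-coding transcripts of as many symbols had at most 3 reads in each untreated library and at least 10 in each ATRA library, out of 79354 that were this low in untreated cells. These are values of single transcripts, and for SLC2A5 and TRIB2 the set holds a minor transcript of a gene whose main one was well above this level in untreated cells. Besides those of HIC1, CCR2, CCR7, ADAM19, GPR82, COL4A2 and RARRES3, the set held transcripts listed at 0 in every untreated library. ARL14EPL was at 41.2, 20.03 and 26.6 with ATRA, at least 10.6-fold higher than 3 reads per library. OR4D6, an olfactory receptor next to OR4D10, was at 26.4, 20.03 and 20.8, at least 8.14-fold higher than that floor. The reverse pattern was seen for 2 transcripts. The amino acid transporter SLC6A14 fell from 37.7, 27.3 and 28.6 to 2.11, 0.91 and 1.66 (log2 -3.67 ± 0.39, adjusted p = 5.31e-07), and a transcript of ANTXR2, an anthrax toxin receptor, from 15.6, 11.8 and 15.7 to 0, 2.73 and 2.497 (log2 -2.70). These 28 and 2 were selected by their values, which are given as a description.

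Outside the protein-coding set 10357 transcripts were tested, of which 405 (3.91%) rose and 125 (1.21%) fell. The falls numbered 73 to 80 when any 1 untreated library or ATRA library 7 was left out, and 173 without ATRA library 9. Transcripts of protein-coding genes without a coding annotation made up 6779 of these, with 210 rises and 48 falls, and 3043 belonged to long noncoding RNAs (lncRNAs), with 170 rises (5.59%) and 62 falls (2.04%). A retained-intron transcript of DHRS3 rose from 18.4, 26.4 and 24.01 to 458, 467 and 558 (log2 4.38 ± 0.16, adjusted p = 5.93e-17) alongside its coding transcript. RNU6ATAC18P, annotated as a small nuclear RNA within the DHRS3 gene on the same strand, rose from 2.76, 1.82 and 0.924 to 32.7, 50.98 and 44.9. Transcripts of UPB1, an enzyme of pyrimidine breakdown (log2 4.74), and of the potassium channel subunit KCNE1 (log2 4.30) were the other leading rises. The leading falls were those of the T cell receptor gamma constant segments TRGC1 (1047, 890.3 and 811 to 238, 206 and 194, log2 -2.10 ± 0.15) and TRGC2 (188, 193 and 152 to 50.7, 60.1 and 39.95, log2 -1.82), the joining segment TRGJP1 and C1orf186, while the T cell genes CD3D and CD3E were listed at 0. TRGC1 and TRGC2 are near-identical copies, and reads may be split between them.

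Among named lncRNAs, chosen after their values were seen, ADORA2A-AS1 rose most, from 5.51, 5.46 and 7.39 to 63.4, 81.02 and 74.1 (log2 3.38 ± 0.23), and it overlaps the start of UPB1 on the opposite strand. C5orf56, which lies in the cytokine region beside IRF1 on chromosome 5, rose from 17.5, 17.3 and 12.01 to 71.8, 83.7 and 88.2 (log2 2.32), and LINC00649 from 145, 172 and 155 to 485, 493 and 643 (log2 1.76). The microRNA host gene MIR9-3HG fell from 219.7, 254 and 259.5 to 66.5, 65.5 and 74.1 (log2 -1.81 ± 0.16), and IL12A-AS1 from 242, 289 and 263 to 82.4, 72.8 and 88.2 (log2 -1.69). The strand setting of the counting is not given in the sources used here, so reads of an antisense RNA and its partner may not be separated.

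ATRA was also set against DAC alone, a comparison that shares the 3 ATRA libraries with the one above. With 1 transcript per symbol, 571 of 7620 (7.49%) were higher with ATRA and 2137 (28.0%) lower. This balance depended on the filter and on the scaling. Over 9016 transcripts the counts were 675 and 2288, and the 1500 transcripts that passed the filter only through groups with DAC, which were by that choice low in most of the untreated and ATRA libraries, held 13 and 854 of them, leaving 662 and 1434. With TMM factors the counts over the 9016 were 1242 and 1923, and the median log2 difference was 0.00 in place of -0.17. CD38 was at 9766, 9317 and 9124 with ATRA and 365, 295 and 257 with DAC (log2 difference 4.95 ± 0.12, adjusted p = 1.35e-17), and DHRS3 at 4809, 5252 and 3931 and 517, 375 and 394 (log2 difference 3.44 ± 0.12). KLF17 had 6.49, 1.95 and 7.97 with DAC and was 6.39 ± 0.31 higher with ATRA on the log2 scale. Every DAC value of CD38 was below its untreated values. S100A9 (929, 1183 and 1156 with DAC, log2 difference -0.17 ± 0.13, adjusted p = 0.309) and CEBPE (1513, 1297 and 1682 with DAC, -0.32 ± 0.13, adjusted p = 0.056) passed no test of the difference between the single agents. LYZ (641, 941 and 835 with DAC, log2 difference -2.17 ± 0.15) and CYBB (3502, 2744 and 2732, -2.18 ± 0.11) were lower with ATRA than with DAC, each with an adjusted p of at most 2.51e-10. GATA2 was at 838, 1011 and 1106 with DAC, and since it passed the filter only through the groups with DAC, its lower value with ATRA was fixed by that choice and is given with no test.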

How the data were processed

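RNA of 12 U937 samples was sequenced as rRNA-depleted stranded total RNA (50 bp paired-end), and the 3 ATRA and 3 untreated libraries carry this comparison. Per the labels the processing used FastQC, STAR, HTSeq, DESeq2 and hg38, with versions, counting mode and strand setting not given in the sources used here. The deposited signal values are read counts per transcript that the authors divided by a size factor for each library. Dividing each column by its smallest step gave whole reads for 100% of values (tolerance 0.1 reads), so a count test could be added.

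Transcripts with a value of at least 10 in at least 3 of the 12 libraries were tested on log2(value + 1) with limma 3.58.1, with all 4 groups in the fit and Benjamini-Hochberg adjustment, and a call is an adjusted p under 0.01. Fold changes are on this scale and understate the change of low genes. The design had named counts as the unit, and since the file holds normalized values, limma replaced edgeR as the main test. edgeR 4.0.16 and DESeq2 1.42.0 were run on the recovered reads as alternatives, edgeR with TMM calling 599 transcripts upwards and 389 downwards. On simulated data of 9016 transcripts for ATRA versus untreated, limma found 95.4% of 4-fold, 67.8% of 2-fold and 30.3% of 1.5-fold changes, with 3 false calls. The simulation gave every transcript the same fixed dispersion in all groups. In the real data the median SD on the log2 scale was 0.162 in untreated and 0.244 in ATRA libraries. The simulated shares and false calls therefore need not hold for these data. Intervals and floors (3 reads per library) cover counting error only, and a fold over the floor compares the ATRA mean with it.

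Each symbol was represented by its most abundant coding transcript, judged by the mean of all 12 libraries. Named genes were the core retinoid and myeloid genes, the 12 largest and 12 smallest fold changes among called symbols with a mean of at least 20 and no overlap, the 3 largest and 2 smallest of each of 15 lists, and the 4 largest and 4 smallest outside the coding set. Further members of these lists, neighbours and genes near silence in untreated cells were named after their values were seen. The lists and members were chosen with earlier results of these data known. Transcript types come from GENCODE release 44, and 15414 transcripts with no matching identifier were taken as coding by their symbol. Of the 9016 tested, 1500 passed the filter only through groups with DAC. Promoter sequences come from RefSeq. Some members of the lists and some genes that meet the naming rule are not reported here.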

Additional observations from a re-analysis of the deposited data

How the results depend on the processing

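Over alternatives, rises were steadier than falls. ATRA versus untreated gave 583 rises and 241 falls, and the falls became 389 in edgeR with TMM, 383 in DESeq2, 387 in limma with TMM, 460 with total reads, 156 in a fit of the 6 libraries alone and, chosen after seeing the data, 399 in edgeR with TMM without DAC library 6. At an adjusted p under 0.05 there were 1317 calls (469 falls), and with a log2 change of at least 1 there were 449 (355 rises, 94 falls). Leaving out 1 library gave 137 to 231 falls, the lowest without untreated library 2, and 463 to 807 rises. The rises numbered 420 in the fit of the 6 libraries alone. Outside the coding set an adjusted p under 0.05 gave 902 calls (638 and 264), and leaving out 1 library gave 73 to 173 falls. Against DAC, calls higher with ATRA went from 675 to 1281 in edgeR with TMM, 1159 in DESeq2, 1242 in limma with TMM, 1030 at 0.05 and, chosen after seeing the data, 1054 in edgeR with TMM without DAC library 6, while limma without that library gave 521. A mean of at least 50 gave 1850 calls (1365 lower), and a log2 difference of at least 1 gave 1778 (266 higher, 1512 lower). The cause was not tested.

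Of 66 called named genes, 57 kept their call under every alternative run for single genes. CDKN2B, CSF1, DAPK2, EIF4E3, MMP1 and P2RY2 lost it under at least 1, and NCOA3, NR2F2 and CDK6 only where a log2 change of at least 1 was required. Of 28 tested and not called, RARA, DHRS9, ALDH1A1, CYP26A1, MNDA, PLD1, RIPK3 and TGM2 were called under at least 1 alternative at the same threshold of 0.01. LYZ, which was not called, had -0.032 when ATRA library 8 was left out and reached 0.26 when library 9 was, and RPLP2 had -0.35 when summed over all transcripts of the symbol, a setting chosen after seeing the data. Of 600 list counts, 508 were within 1.5 times the reported one. No paired analysis was possible because the matrix columns carry running numbers and not the replicate numbers of the labels. Transcripts with few own bases and levels near 3 reads limit what this depth can show. Among the named genes, the transcripts used for RARA, ERAP2 and INPP4B had 0 bases of their own, that of NCOA3 had 5 and that of CDK6 had 45. Summed over all transcripts of the symbol, a setting chosen after seeing the data, their log2 fold changes were 0.55, 1.06, -1.19, 0.95 and -0.71 in that order.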
